A study of Mus musculus with 12 samples.

Results

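The histone genes were the 80 of the 32699 genes in the deposited tables whose symbol begins with Hist1h to Hist4h, H2af, H3f3 or H1f. They comprised 64 genes of the histone clusters, here called clustered genes, and 16 genes of histone variants. Of the clustered genes, 52 belonged by symbol to cluster 1, 8 to cluster 2, 3 to cluster 3 and 1 to cluster 4. By protein, 6 were linker histone H1 genes, 17 H2A, 18 H2B, 10 H3 and 13 H4 genes. The variants comprised 4 H1, 10 H2A and 2 H3 genes, and no variant of H2B or H4 matched the rule. GENCODE types Hist1h2al, Hist3h2bb-ps and the variant H2afy3 as processed pseudogenes. Hist1h2al, at chr13:51200084-51203066, also lies apart from the other genes counted in cluster 1. The RNA came from G1E-ER4, a mouse erythroid progenitor line with a fusion of GATA-1, a transcription factor, and the hormone-binding estrogen receptor, which starts erythroid differentiation once β-estradiol (E2) is given. TMG_E2 cells received both 10 µM Thiamet-G (TMG), which inhibits the O-GlcNAc-removing enzyme OGA, and 1 µM E2 for 30 h. E2 cells received the estradiol alone and TMG cells the Thiamet-G alone, at the same doses and time, and Ctrl cells had no treatment. All 4 groups carried the fusion protein and grew in the same medium with erythropoietin, stem cell factor and puromycin. Each group had 3 libraries. All came from 1 cell line, nothing in the labels says whether replicates were separate cultures, and p-values therefore measure the spread between these samples, which may be technical.

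Histone proteins package DNA into nucleosomes. The clustered genes are transcribed mainly in S phase, when new chromatin is assembled, and most of their transcripts end in a short stem-loop in place of a poly(A) tail. Stem-loop binding protein, the product of Slbp, holds this end during processing, export and decay. Variant genes stand alone in the genome, carry introns in most cases, make polyadenylated transcripts and are expressed throughout the cell cycle. Their products replace the canonical histones at particular places, as H2A.Z does near transcription starts and H3.3 does in transcribed chromatin. During red cell maturation the nucleus condenses before it is expelled.

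Poly(A)-selected RNA was sequenced from all 12 libraries, so transcripts that end in the stem-loop alone were selected against, and the clustered genes are read here only through what such libraries keep. Totals ran over 17589380 to 23178721 expected counts per library, so that 3 counts stood for 0.133 to 0.180 CPM (counts scaled to a common library size). The labels call the cell type embryonic stem cell, but 4 of 5 embryonic stem cell markers were at 0 in every library and the fifth, Nanog, reached 0.303 CPM. The 6 erythroid markers analysed summed to 17837 to 22603 CPM in TMG_E2 libraries, 19433 to 20548 CPM in E2 libraries, 611 to 668 CPM in TMG libraries and 432 to 455 CPM in Ctrl libraries. The 3 mast cell markers summed to 0.321 to 0.598 CPM in TMG_E2 libraries and 0.283 to 0.910 CPM in E2 libraries, against 77.4 to 93.9 CPM in TMG libraries and 76.8 to 100.3 CPM in Ctrl libraries. The 4 megakaryocyte markers summed to 37.7 to 43.8 and 37.2 to 39.7 CPM in TMG_E2 and E2 libraries, against 75.1 to 90.1 and 79.97 to 90.7 CPM in TMG and Ctrl libraries. Nbeal2 carried that difference, while Itga2b stayed between 5.05 and 7.28 CPM in all 12 libraries and Gp9 went the other way, with 5.34 to 8.74 CPM in the libraries with E2 against 0.519 to 1.56 CPM in those without. The 3 granulocyte markers summed to 2.42 to 3.29 and 1.57 to 2.01 CPM in TMG_E2 and E2 libraries, against 20.01 to 23.3 and 16.3 to 21.3 CPM in TMG and Ctrl libraries. Coro1a, a gene of leukocytes in general, made up that sum, with Elane at 0 throughout and Mpo at 0 in 11 of 12 libraries. The part of these marker changes in the E2 results below was not tested. In bulk RNA, fewer cells of a type and less RNA per cell cannot be told apart.

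The variant genes carried nearly all histone RNA in these libraries. On the deposited TPM scale, which divides by transcript length and so lets genes be compared, H2afz, one of the genes for H2A.Z, had the highest mean level over the 12 libraries, 1663 TPM. The H3.3 genes H3f3a and H3f3b followed at 965 and 431 TPM. H2afy, which encodes macroH2A1, averaged 109.7 TPM, and H2afx, which encodes the damage-marked H2A.X, averaged 58.2 TPM. H2afv, the other H2A.Z gene, averaged 37.3 TPM and H2afj, an H2A variant gene, 32.1 TPM. Neighbours in this order were apart in every library down to H3f3b, but in the 6 libraries with E2 the levels of H2afy, H2afx and H2afv all lay between 44.4 and 54.8 TPM, and H2afv and H2afj overlapped over the 12 libraries. The other 9 variants were at or near 0: H1fx, H1foo and the 3 H2afb genes had no count in any library, and H1f0, H2afy2, H1fnt and H2afy3 had 1, 3, 4 and 26 counts over all 12 libraries. H1f0, the linker histone gene known for its rise in differentiating cells, thus had 1 count in 1 TMG_E2 library.

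The highest clustered gene, the H4 gene Hist1h4i, averaged 7.76 TPM, 4.14-fold below the lowest of the 7 measured variants. The next were the H2A gene Hist1h2ai at 6.95 TPM, Hist1h2br at 6.92 TPM, the H2A gene Hist1h2ao at 6.22 TPM, the H2B gene Hist1h2bc at 5.40 TPM and the H1.2 gene Hist1h1c at 5.09 TPM. Hist1h2bk, Hist1h4d, Hist1h1d and Hist1h2ae averaged 4.15, 3.01, 2.71 and 2.60 TPM. The library ranges of all 10 overlapped their neighbours in this order. The median of the 64 clustered genes was 1.21 TPM, 35 had at least 1 library at 0, and 3 (Hist1h2aa, Hist1h2ba and the pseudogene Hist3h2bb-ps) were at 0 throughout. The clustered genes held 1.82% to 5.04% of histone TPM and 0.693% to 1.74% of histone counts per library. The copies are nearly identical in sequence, and 51 of the 64 clustered genes had counts that were not whole (off by over 0.005) in at least 1 library, because reads were divided among copies. A value for 1 clustered gene is therefore uncertain. Whether counting used strand is not known, so reads of a gene and of an overlapping antisense transcript could not be told apart.

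**Figure D1:**
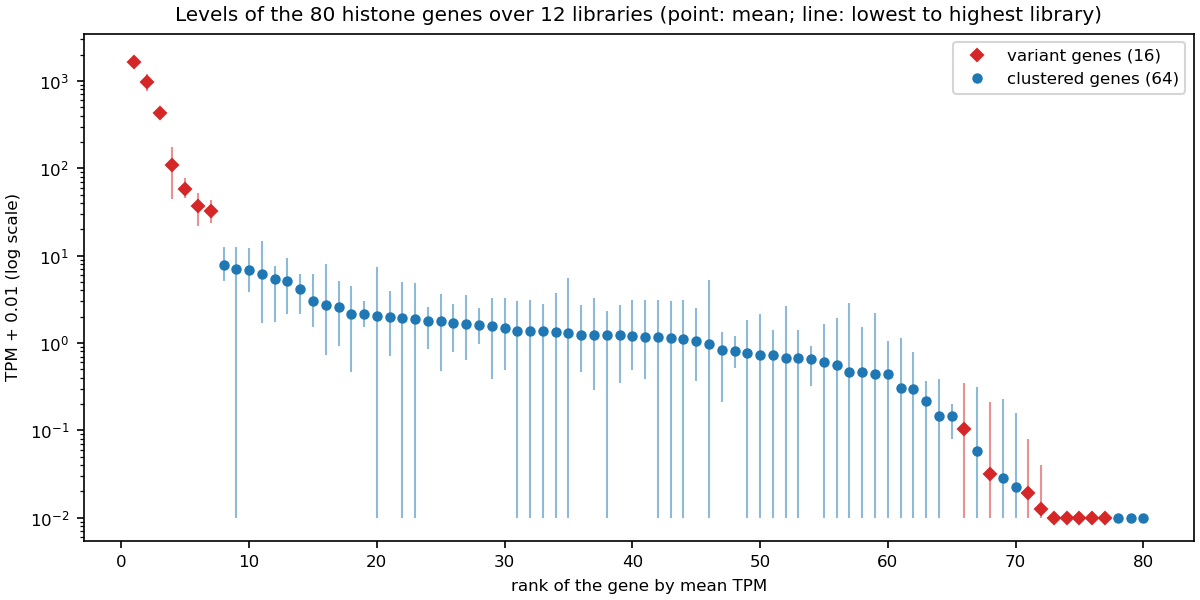
Mean TPM (log axis, 0.01 added) of each of the 80 histone genes over 12 libraries, ranked, with a line from the lowest to the highest library; red diamonds are variants and blue circles clustered genes. The 7 leading points are variants between 32.1 and 1663 TPM, and the clustered genes begin at 7.76 TPM.

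Estradiol moved 4 of the 7 variants that passed the study's filter, CPM above 10 in at least 2 libraries. H2afv and H3f3a were higher in E2 than in Ctrl cells, H2afy and H2afx were lower, and H2afz, H3f3b and H2afj did not pass the test. A gene is said to have risen or fallen where the adjusted p of edgeR's quasi-likelihood test over all 8273 genes kept was under 0.05. Of all genes kept, 82.7% passed in this comparison, 41.5% higher and 41.2% lower, so 4 of 7 is no larger a share than among genes at large. The median log2 fold change was -0.01 over the 7 variants and -0.00 over all genes. The CPM levels given below are scaled by TMM, edgeR's trimmed mean normalization.

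H2afv (chr11:6427226-6444511, GRCm38) had 54.3, 52.6 and 58.1 CPM in the TMG_E2 libraries, 51.5, 53.4 and 53.0 in the E2 libraries, 25.8, 25.2 and 24.1 in the TMG libraries, and 20.8, 20.5 and 20.1 in the Ctrl libraries. Every E2-treated library, with or without TMG, lay above every library without E2. Its level in E2 cells was 2.57-fold that in Ctrl cells (log2 fold change 1.36 ± 0.05 (SE), adjusted p = 7.18e-14), and in TMG_E2 cells 2.19-fold that in TMG cells (log2 fold change 1.13 ± 0.05 (SE), adjusted p = 7.40e-13). H2afz (chr3:137864487-137866922), which encodes the other H2A.Z protein, had 1064, 1064 and 1096 CPM in the TMG_E2 libraries, 969.6, 973 and 1027 in the E2 libraries, 1007, 1112 and 1041 in the TMG libraries, and 998, 958 and 987 in the Ctrl libraries. The E2 and Ctrl libraries of H2afz overlapped (log2 fold change 0.01 ± 0.04 (SE), adjusted p = 0.773), and the 95% interval of the difference was -0.07 to 0.09 on the log2 scale. For H2afv the interval was 1.26 to 1.46.

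H3f3a (chr1:180802560-180813605) had 777, 779.7 and 799 CPM in the TMG_E2 libraries, 708, 706 and 697 in the E2 libraries, 508, 508 and 508 in the TMG libraries, and 463, 445 and 466 in the Ctrl libraries. Its E2 and TMG_E2 libraries were all above the TMG and Ctrl libraries. The rise was 1.54-fold in E2 against Ctrl cells (log2 fold change 0.62 ± 0.03 (SE), adjusted p = 5.30e-12) and 1.55-fold in TMG_E2 against TMG cells (log2 fold change 0.63 ± 0.03 (SE), adjusted p = 4.13e-12). H3f3b (chr11:116021961-116026039), which encodes the same H3.3 protein, had 547, 525 and 583 CPM in the TMG_E2 libraries, 511, 509 and 525 in the E2 libraries, 561, 594 and 582 in the TMG libraries, and 528, 506 and 521 in the Ctrl libraries. E2 and Ctrl overlapped (log2 fold change -0.01 ± 0.04 (SE), adjusted p = 0.844; 95% interval -0.09 to 0.07). Scaled by library size alone, H3f3b passed as lower in E2 cells (log2 fold change -0.11, adjusted p = 0.0130), a scaling that shifts the median of all genes by -0.10 in this comparison and in TMG_E2 against TMG. It passed as lower there too, with that scaling (log2 fold change -0.17, adjusted p = 4.30e-04) or without TMG_E2 replicate 3 (-0.11, adjusted p = 0.00929), but not in the fit with TMM and all libraries (log2 fold change -0.07 ± 0.04 (SE), adjusted p = 0.111). Summed over both genes, H3.3 RNA was 1337 ± 40.3 CPM in TMG_E2 cells, 1219 ± 3.71 CPM in E2 cells, 1087 ± 16.5 CPM in TMG cells and 976 ± 22.1 CPM in Ctrl cells (SD, n = 3 each).

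H2afy (chr13:56073622-56135626) fell the most of the variants. It had 60.6, 58.7 and 59.9 CPM in the TMG_E2 libraries, 64.5, 63.9 and 65.2 in the E2 libraries, 189, 180.0 and 195 in the TMG libraries, and 194, 193 and 193 in the Ctrl libraries. The E2-treated and untreated libraries were widely separated. Its log2 fold change was -1.58 ± 0.04 (SE) in E2 against Ctrl cells, adjusted p = 1.49e-16, and -1.66 ± 0.04 in TMG_E2 against TMG cells, adjusted p = 1.06e-16. Its macroH2A1 isoforms are not resolved in gene counts. H2afx (chr9:44334715-44336077) had 42.2, 43.3 and 44.5 CPM in the TMG_E2 libraries, 40.5, 39.3 and 39.5 in the E2 libraries, 51.6, 53.0 and 50.4 in the TMG libraries, and 58.4, 48.0 and 54.5 in the Ctrl libraries. The E2-treated libraries were all below the others. H2afx fell by 0.43 ± 0.06 (SE) on the log2 scale in E2 against Ctrl cells, adjusted p = 2.73e-06, and by 0.26 ± 0.06 in TMG_E2 against TMG cells, adjusted p = 6.98e-04. H2afj (chr6:136808248-136810074) had 28.0, 41.4 and 35.7 CPM in the TMG_E2 libraries, 34.1, 36.5 and 35.4 in the E2 libraries, 32.8, 43.2 and 39.5 in the TMG libraries, and 45.0, 31.0 and 35.6 in the Ctrl libraries. Its groups all overlapped, and the E2 effect had a 95% interval of -0.33 to 0.19 on the log2 scale (adjusted p = 0.625).

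TMG_E2 against TMG gave the same 4 calls, 2 higher and 2 lower, where 82.7% of all genes kept passed, 40.9% higher and 41.8% lower. These comparisons share no library, though they share the estimate of spread. The share of all genes kept that were called alike in both was not counted.

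**Figure D2:**
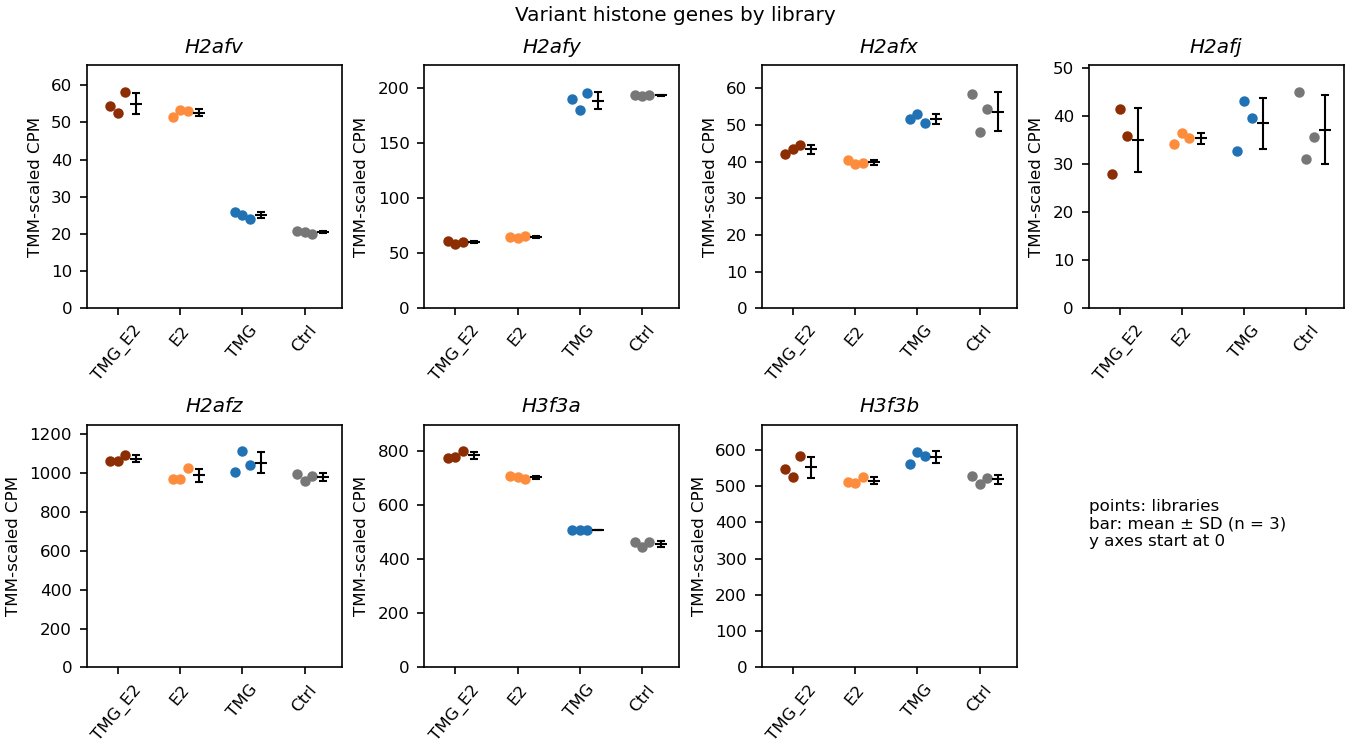
TMM-scaled CPM of the 7 variant genes that passed the filter, by library (points) with mean ± SD (n = 3), in TMG_E2, E2, TMG and Ctrl cells; each axis starts at 0. H2afv and H3f3a are higher and H2afy and H2afx lower in both E2-treated groups, and H2afj overlaps throughout.

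The promoters of H2afv and H2afy are shown because these variants moved furthest in opposite directions, and those of Hist1h1c and Hist1h1d because these H1 genes of 1 cluster also moved apart, as described below. Each is the 300 bases from 250 before to 50 after the RefSeq start, on GRCm38.p6, written 5′ to 3′ along the gene. Capitals mark the CCAAT box, the TATA box (TATAAA) and a GATA motif (AGATAA), read on either strand.
H2afv: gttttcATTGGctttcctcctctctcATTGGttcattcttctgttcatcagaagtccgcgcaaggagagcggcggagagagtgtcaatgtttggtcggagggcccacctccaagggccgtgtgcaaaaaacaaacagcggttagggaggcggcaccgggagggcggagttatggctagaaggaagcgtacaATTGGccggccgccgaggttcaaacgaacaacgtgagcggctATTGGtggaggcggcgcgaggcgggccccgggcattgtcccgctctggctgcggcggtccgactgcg
H2afy: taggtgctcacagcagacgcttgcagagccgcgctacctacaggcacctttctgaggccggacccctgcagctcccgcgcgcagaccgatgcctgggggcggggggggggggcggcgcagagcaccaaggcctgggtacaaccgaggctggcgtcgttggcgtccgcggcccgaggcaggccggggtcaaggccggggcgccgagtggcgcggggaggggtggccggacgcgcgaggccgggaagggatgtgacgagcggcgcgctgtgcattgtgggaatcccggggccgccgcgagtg
Hist1h1c: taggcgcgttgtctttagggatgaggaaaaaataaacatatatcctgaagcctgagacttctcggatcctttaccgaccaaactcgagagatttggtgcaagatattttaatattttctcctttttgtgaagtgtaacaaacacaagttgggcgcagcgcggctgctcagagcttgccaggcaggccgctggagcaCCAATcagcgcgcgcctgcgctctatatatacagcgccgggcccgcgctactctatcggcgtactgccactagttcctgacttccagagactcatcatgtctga
Hist1h1d: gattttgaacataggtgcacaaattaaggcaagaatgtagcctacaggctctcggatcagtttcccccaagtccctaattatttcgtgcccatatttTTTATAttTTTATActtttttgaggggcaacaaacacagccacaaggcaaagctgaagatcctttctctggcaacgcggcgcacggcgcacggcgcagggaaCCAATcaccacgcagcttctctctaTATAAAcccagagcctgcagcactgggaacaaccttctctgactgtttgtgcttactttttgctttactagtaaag
They lie at chr11:6444394-6444693, minus strand, chr13:56135501-56135800, minus strand, chr13:23738557-23738856, plus strand and chr13:23554782-23555081, plus strand. The H2afv window holds 4 CCAAT matches, all on the opposite strand, where they read ATTGG, and no TATAAA or AGATAA. The H2afy window holds none of the 3 motifs. The Hist1h1c window holds 1 CCAAT and no exact TATAAA, and that of Hist1h1d holds 1 CCAAT and 3 TATAAA matches.

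Of the 80 members, 79 matched 1 RefSeq gene and 70 had a promoter in the RefSeq table, 57 clustered and 13 variant. CCAAT was found in 48 of 57 clustered (84.2%) and 9 of 13 variant promoters (69.2%), against 37.4% of all 32851 RefSeq promoters of this length. TATAAA was found in 33 of 57 clustered (57.9%) and 1 of 13 variant promoters (7.69%), against 13.6% of all 32851. AGATAA, letters bound by GATA factors, was found in 12 of 57 clustered (21.1%) and 0 of 13 variant promoters (0%), against 11.2% of all 32851. CACCC, letters bound by erythroid Krüppel-like factors, was found in 19 of 57 clustered (33.3%) and 6 of 13 variant promoters (46.2%), against 57.5% of all 32851, the H2afy window among them. Both strands were searched, and matches that overlap were counted separately. Some windows of neighbouring genes overlap, such as those of Hist1h2ae and Hist1h2bg, which both hold AGATAA. The same site can then count for both genes, so the clustered windows are not all separate. A match describes the letters only.

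TMG without E2 raised 3 of the 7 variants and lowered none. H2afv, H3f3a and H3f3b rose in TMG against Ctrl cells, by small amounts. Of all genes kept, 5.15% passed, 3.01% higher and 2.14% lower, and the median log2 fold change was 0.10 over the variants and 0.00 over all genes. That share covers genes of every level kept and was not matched to the high levels of H3f3a and H3f3b, where small changes can pass. Scaled by library size alone, the calls over all genes were 179 higher and 232 lower, against 249 higher and 177 lower with TMM. The same 3 variants passed under that scaling. This comparison and E2 against Ctrl share the Ctrl libraries.

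H2afv rose 1.22-fold (log2 fold change 0.29 ± 0.06 (SE), adjusted p = 0.00573), and its 3 TMG libraries all lay above its 3 Ctrl libraries. H3f3a rose 1.11-fold (log2 fold change 0.15 ± 0.03 (SE), adjusted p = 0.0116), with no overlap, but without Ctrl replicate 2 its adjusted p was 0.0704. H3f3b rose 1.12-fold (log2 fold change 0.16 ± 0.04 (SE), adjusted p = 0.0258). Its call was lost in 5 of the 6 fits that left out 1 library, with an adjusted p of 0.132 without TMG replicate 2, 0.0758 without TMG replicate 3, and 0.0564, 0.109 and 0.112 without Ctrl replicates 1, 2 and 3. H2afz (log2 fold change 0.10 ± 0.04 (SE), adjusted p = 0.166), H2afy (log2 fold change -0.04 ± 0.03 (SE), adjusted p = 0.609), H2afx (log2 fold change -0.05 ± 0.06 (SE), adjusted p = 0.673) and H2afj (log2 fold change 0.05 ± 0.13 (SE), adjusted p = 0.893) did not pass.

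In cells with E2, adding TMG raised H3f3a, by 1.12-fold (log2 fold change 0.16 ± 0.03 (SE), adjusted p = 0.00381). No other variant passed, where 12.8% of all genes kept did, 5.61% higher and 7.14% lower (464 higher and 591 lower, against 348 and 764 with library size alone). All 3 TMG_E2 libraries of H3f3a exceeded all 3 E2 libraries. H2afz also had its TMG_E2 libraries above its E2 libraries, with a log2 fold change of 0.12 ± 0.04 (SE) and an adjusted p of 0.0624. It passed when the replicate number was fitted as a block (adjusted p = 0.0427), with RLE size factors (adjusted p = 0.0448) and with DESeq2 (adjusted p = 0.0190). H2afv (log2 fold change 0.06 ± 0.05 (SE), adjusted p = 0.418) and H2afy (log2 fold change -0.11 ± 0.04 (SE), adjusted p = 0.0761) did not pass, and their 95% intervals were -0.03 to 0.15 and -0.19 to -0.03. With library size alone H2afy passed (adjusted p = 0.0413). H3f3b (log2 fold change 0.10 ± 0.04 (SE), adjusted p = 0.112) passed only without TMG_E2 replicate 2, with an adjusted p of 0.0325. H2afx had a log2 fold change of 0.12 ± 0.06 (SE; adjusted p = 0.205) and H2afj of -0.02 ± 0.14 (adjusted p = 0.941).

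Whether the E2 effect differed with TMG was tested by the interaction term, TMG_E2 minus TMG less E2 minus Ctrl. No variant passed with edgeR or DESeq2, where 0.931% of all genes kept did, 0.266% higher and 0.665% lower. An unadjusted p under 0.05 was found for 914 of all 8273 genes kept and for 1 of the 7 variants. That gene was H2afv, with an interaction of -0.23 ± 0.07 (SE, log2; adjusted p = 0.175). For H3f3a the interaction had a 95% interval of -0.08 to 0.10, and for H2afy of -0.18 to 0.03.

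No clustered gene passed the CPM filter. As an alternative, edgeR's filterByExpr rule (about 10 counts in at least 3 libraries) kept 11143 genes, 24 of the 64 clustered genes among them, and the clustered tests below come from that fit. Of the 24, 10 passed only through libraries without E2 (Hist1h1a, Hist1h1b, Hist1h1d, Hist1h1e, Hist1h2ae and Hist1h3h among them), 1 only through libraries with E2, 9 through either set and 4 through both together. A gene kept only through the set where it is high is more likely to be found different, so the counts below describe the 24 and support nothing about the 64. The clustered genes described beyond the 10 of highest level were chosen after their values were seen.

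The summed level of the 64 clustered genes was 17.9, 25.8 and 24.6 CPM in TMG_E2 libraries, 17.8, 21.2 and 24.3 CPM in E2 libraries, 26.4, 44.5 and 33.9 CPM in TMG libraries and 26.2, 27.3 and 25.2 CPM in Ctrl libraries. Every E2 library lay below every Ctrl library, and every TMG_E2 library lay below every TMG library. The TMG group was the widest, with TMG replicate 2 the highest library. The H2A genes averaged 4.61 ± 1.23 CPM in TMG_E2 cells, 3.97 ± 0.721 CPM in E2 cells, 9.66 ± 3.85 CPM in TMG cells and 7.46 ± 0.536 CPM in Ctrl cells (SD, n = 3). The H2B genes averaged 8.27 ± 1.30, 8.25 ± 0.953, 9.39 ± 1.29 and 7.83 ± 0.874 CPM in TMG_E2, E2, TMG and Ctrl cells. The H2B group means lay between 7.83 and 9.39 CPM, while the H2A means were lower in both E2-treated groups. That contrast holds in CPM only. In TPM the H2B sum averaged 25.3, 26.8, 40.5 and 34.1 in TMG_E2, E2, TMG and Ctrl cells. All E2-treated libraries, at most 28.8 TPM, lay below all others, at least 30.5 TPM. The deposited TPM carry no TMM scaling, however. H2afz, whose E2 and Ctrl libraries overlapped in CPM, had 1485 to 1580 TPM in E2 libraries and 1677 to 1768 TPM in Ctrl libraries. The part of this scale in the H2B difference was not tested. The H3 sum was 2.64 ± 0.681, 2.56 ± 0.361, 4.74 ± 1.48 and 3.77 ± 0.303 CPM, and the H4 sum 2.82 ± 0.707, 2.43 ± 0.377, 4.14 ± 0.939 and 3.01 ± 0.163 CPM, in the same group order. These sums are descriptions with no test.

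**Figure D3:**
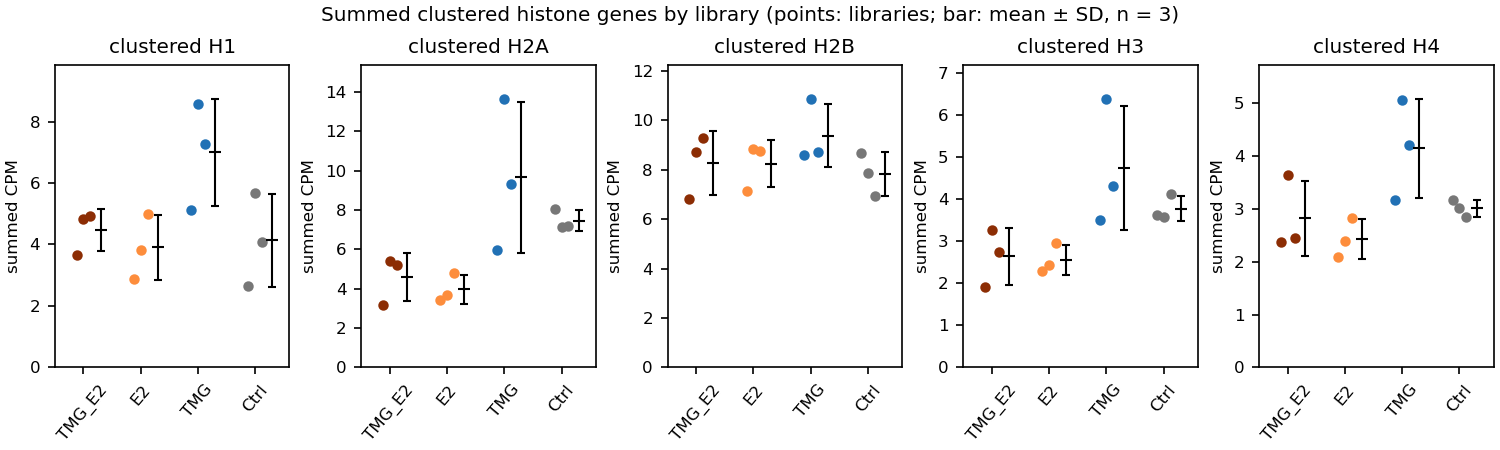
Summed TMM-scaled CPM of the clustered genes of each histone type, by library (points) with mean ± SD (n = 3), in TMG_E2, E2, TMG and Ctrl cells; each axis starts at 0. The H2A sum averages 4.61 and 3.97 CPM in TMG_E2 and E2 cells and 9.66 and 7.46 CPM in TMG and Ctrl cells, and TMG replicate 2 is the highest library of every type.

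With E2 alone, 2 of the 24 clustered genes rose and 5 fell against Ctrl. Over all genes in that fit 75.5% passed, 37.9% higher and 37.7% lower, and the median log2 fold change was -0.43 over the 24 and 0.01 over all. In TMG_E2 against TMG cells, 2 rose and 8 fell, where 75.5% of all genes passed, 37.4% higher and 38.2% lower, and the medians were -0.64 and -0.00. Called in both were 1 higher gene (Hist1h1c) and 4 lower genes (Hist1h1d, Hist1h2ae, Hist1h2ao and Hist1h3h), and none of the 24 was called in opposite directions. The share of all genes called alike in both was not counted. With 75.5% passing in each comparison such calls are common, so this is no trait of these genes. Of the 4 lower genes, Hist1h1d, Hist1h2ae and Hist1h3h were kept only through libraries without E2, where they are high, so their calls in both comparisons are descriptions.

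The tested linker histone genes of cluster 1 differed in direction. All of them except Hist1h1c were kept only through libraries without E2, where they are high, so their falls are descriptions. Hist1h1c (chr13:23738807-23739531), which encodes H1.2, had 54.8, 71.9 and 59 expected counts in the TMG_E2 libraries, 28, 52.7 and 60.8 in the E2 libraries, 29, 30.4 and 27 in the TMG libraries, and 16, 21 and 16.6 in the Ctrl libraries. Its level averaged 3.28 ± 0.729 CPM in TMG_E2 cells, 2.37 ± 0.753 CPM in E2 cells, 1.48 ± 0.0918 CPM in TMG cells and 0.829 ± 0.141 CPM in Ctrl cells (SD, n = 3). In CPM every E2-treated library exceeded every library without E2, narrowly for E2 replicate 1 at 1.58 against TMG replicate 2 at 1.55. In TPM, E2 replicate 1 at 3.97 lay below TMG replicates 2 and 3 at 4.27 and 4.16. The rise was 2.88-fold in E2 against Ctrl cells (log2 fold change 1.52 ± 0.27 (SE), adjusted p = 5.03e-05) and 2.22-fold in TMG_E2 against TMG cells (log2 fold change 1.15 ± 0.23 (SE), adjusted p = 2.37e-04). It was among the 9 genes that the filter kept through either set of libraries.

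Hist1h1d (chr13:23555032-23555807), which encodes H1.3, had 7.11, 6 and 7 expected counts in the TMG_E2 libraries, 6, 8.12 and 12.2 in the E2 libraries, 29, 61.6 and 41 in the TMG libraries, and 17, 31 and 34 in the Ctrl libraries. In CPM it averaged 0.353 ± 0.0575 in TMG_E2 cells, 0.444 ± 0.149 in E2 cells, 2.27 ± 0.886 in TMG cells and 1.26 ± 0.395 in Ctrl cells. The direction was the opposite of that of Hist1h1c, with log2 fold changes of -1.50 ± 0.39 (SE; adjusted p = 0.00218) in E2 against Ctrl cells and -2.67 ± 0.38 (adjusted p = 4.48e-06) in TMG_E2 against TMG cells. Hist1h1d was kept only through libraries without E2, so these values describe it and support no more.

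Hist1h1a, the H1.1 gene, had 5, 3 and 6 expected counts in the TMG_E2 libraries, 6, 7 and 7 in the E2 libraries, 21, 24 and 21 in the TMG libraries, and 8, 21 and 12 in the Ctrl libraries. Hist1h1b, the H1.5 gene, had 10, 4 and 5 expected counts in the TMG_E2 libraries, 8, 9 and 13 in the E2 libraries, 17, 28 and 24 in the TMG libraries, and 11, 30 and 17 in the Ctrl libraries. Hist1h1e, the H1.4 gene, had 5.08, 5.12 and 5 expected counts in the TMG_E2 libraries, 3, 5.16 and 6.08 in the E2 libraries, 12, 24 and 16 in the TMG libraries, and 4, 17 and 12.4 in the Ctrl libraries. All 3 were kept only through libraries without E2, so their falls are descriptions too. In TMG_E2 against TMG cells all 3 fell, with log2 fold changes of -2.18 ± 0.39, -1.82 ± 0.42 and -1.74 ± 0.47 (SE) and adjusted p of 6.38e-05, 7.83e-04 and 0.00253. In E2 against Ctrl cells none of the 3 passed, at adjusted p of 0.0532, 0.0755 and 0.0689. With the replicate block Hist1h1e passed there (log2 fold change -1.09, adjusted p = 0.0289). With library size alone all 3 passed, at adjusted p of 0.0322, 0.0477 and 0.0481. Without Ctrl replicate 1, the lowest Ctrl library for all 3, the adjusted p was 0.0164, 0.0215 and 0.00993. Hist1h1t, the testis H1 gene, had 1 count in all.

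**Figure D4:**
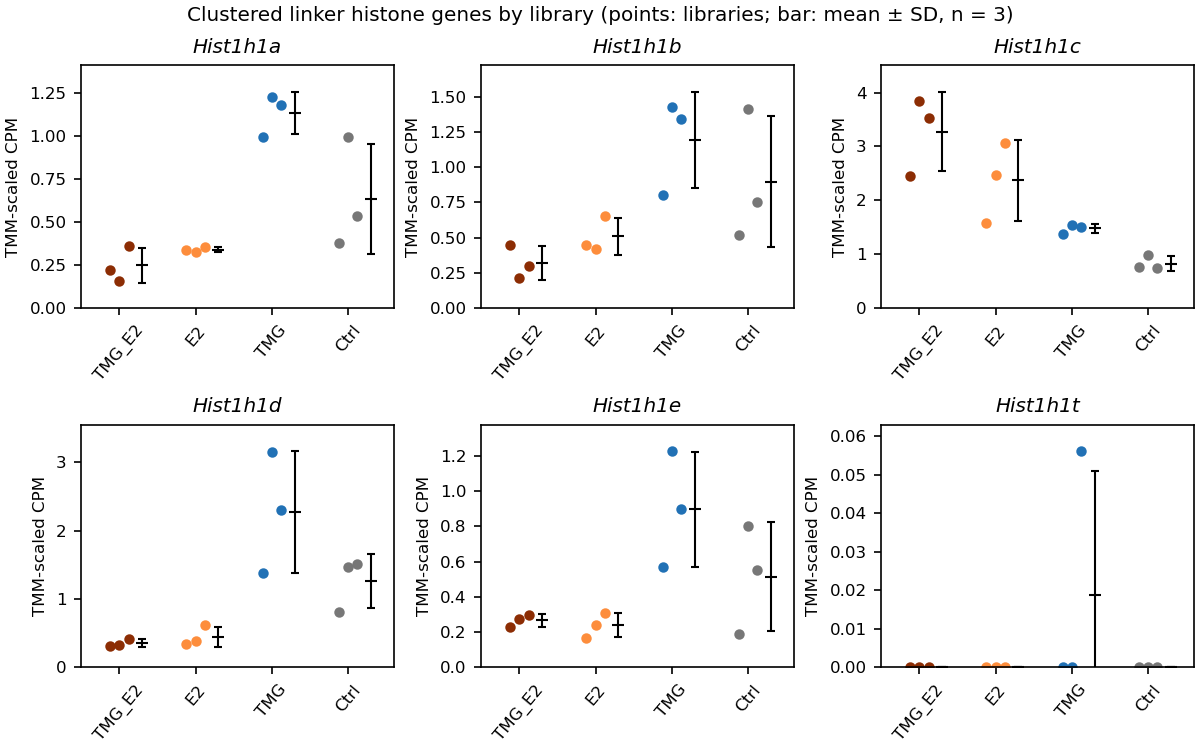
TMM-scaled CPM of the 6 clustered linker histone genes by library (points) with mean ± SD (n = 3), in TMG_E2, E2, TMG and Ctrl cells; each axis starts at 0 and the scales differ. Hist1h1c is higher in both E2-treated groups, Hist1h1a, Hist1h1b, Hist1h1d and Hist1h1e are lower in TMG_E2 than in TMG cells, and Hist1h1t has 1 count in 1 TMG library.

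Among the clustered H2A genes, Hist1h2ao had 10.2, 19.1 and 13.3 expected counts in the TMG_E2 libraries, 10.7, 22.8 and 19.8 in the E2 libraries, 30.8, 71.7 and 56.2 in the TMG libraries, and 42.0, 35.8 and 42.4 in the Ctrl libraries. It fell by 1.01 ± 0.34 (SE) on the log2 scale in E2 against Ctrl cells, adjusted p = 0.0117, and by 1.88 ± 0.34 in TMG_E2 against TMG cells, adjusted p = 6.20e-05. Without E2 replicate 1 the first call was lost (adjusted p = 0.0553). Hist1h2ae, kept only through libraries without E2, fell in E2 cells by 0.80 ± 0.33 (SE; adjusted p = 0.0367) and in TMG_E2 cells by 1.27 ± 0.34 (adjusted p = 0.00260). Its E2 call was lost without E2 replicates 2 and 3 and without Ctrl replicates 1 and 2, at adjusted p of 0.0600, 0.135, 0.127 and 0.0882. It was also lost with DESeq2, at an adjusted p of 0.106, and with no filter, at 0.0592. Hist1h2ai had 15.4, 14.4 and 27.8 expected counts in the TMG_E2 libraries, 0, 21.3 and 13.4 in the E2 libraries, 27.3, 44.5 and 35.2 in the TMG libraries, and 28.9, 36.0 and 41.7 in the Ctrl libraries. It was listed at 0 in 1 E2 library, and fell in E2 cells by 1.51 ± 0.48 (SE; adjusted p = 0.00903), or by 2.24 without E2 replicate 2. In TMG_E2 against TMG cells it did not pass (log2 fold change -0.85 ± 0.43 (SE), adjusted p = 0.0847) but passed with the replicate block (adjusted p = 0.0420), with no filter (adjusted p = 0.0136), with only the groups compared (adjusted p = 0.0364) and without TMG_E2 replicate 3 (adjusted p = 0.0199).

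Among the H2B genes, Hist1h2bc had 38.5, 45.9 and 45.2 expected counts in the TMG_E2 libraries, 31.3, 55.1 and 45.0 in the E2 libraries, 42.0, 40.4 and 24.5 in the TMG libraries, and 30.5, 31.9 and 13.8 in the Ctrl libraries. It rose 1.86-fold in E2 against Ctrl cells (log2 fold change 0.90 ± 0.28 (SE), adjusted p = 0.00814), a call lost without Ctrl replicate 3 (log2 fold change 0.58, adjusted p = 0.0540), and in TMG_E2 against TMG cells it did not pass (log2 fold change 0.33 ± 0.27 (SE), adjusted p = 0.275). Hist2h2be, an H2B gene of cluster 2, had 29, 27 and 25 expected counts in the TMG_E2 libraries, 17, 36 and 29 in the E2 libraries, 16, 18 and 9 in the TMG libraries, and 27, 20 and 17 in the Ctrl libraries. It rose 1.92-fold in TMG_E2 against TMG cells (log2 fold change 0.94 ± 0.29 (SE), adjusted p = 0.00674). In E2 against Ctrl cells its log2 fold change was 0.49 ± 0.27 (SE; adjusted p = 0.105), and it passed without E2 replicate 1 (adjusted p = 0.0331) or without Ctrl replicate 1 (adjusted p = 0.0446). Hist1h2br did not pass in either comparison (adjusted p = 0.134 with E2 alone and 0.240 with TMG as well), though without E2 replicate 2 or Ctrl replicate 2 it passed as lower with E2 alone (adjusted p = 0.0192 and 0.0323).

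Of the H3 genes, Hist1h3h, also kept only through libraries without E2, had 6.04, 6.26 and 1.08 expected counts in the TMG_E2 libraries, 2.18, 0 and 2.28 in the E2 libraries, 15.2, 9.41 and 10.7 in the TMG libraries, and 20.6, 6.88 and 17 in the Ctrl libraries. It fell in E2 against Ctrl cells (adjusted p = 2.70e-04) and in TMG_E2 against TMG cells (adjusted p = 0.0293). The second call was lost without TMG_E2 replicate 3, TMG replicate 1 or TMG replicate 3, at adjusted p of 0.109, 0.0950 and 0.0587. Hist1h3g had 1.92, 0 and 1.95 expected counts in the TMG_E2 libraries, 2.54, 4 and 10.7 in the E2 libraries, 9.55, 12.3 and 11.03 in the TMG libraries, and 4.91, 5.97 and 4.48 in the Ctrl libraries, and fell in TMG_E2 against TMG cells (adjusted p = 4.92e-04). No fold is given for either, because the lower libraries held at most a few counts. Hist1h3g was above the filter's cutoff in 2 TMG libraries, 1 E2 library and 0 TMG_E2 libraries. Its fall in TMG_E2 against TMG cells is therefore a description too. The H4 gene Hist1h4i had 27.7, 37.0 and 17.5 expected counts in the TMG_E2 libraries, 17.1, 18.1 and 22.3 in the E2 libraries, 23.9, 24.2 and 33.7 in the TMG libraries, and 24.0, 23.6 and 18.0 in the Ctrl libraries. Its groups overlapped in both comparisons, with 95% intervals of -0.65 to 0.51 in E2 against Ctrl and -0.48 to 0.56 in TMG_E2 against TMG cells on the log2 scale.

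**Figure D5:**
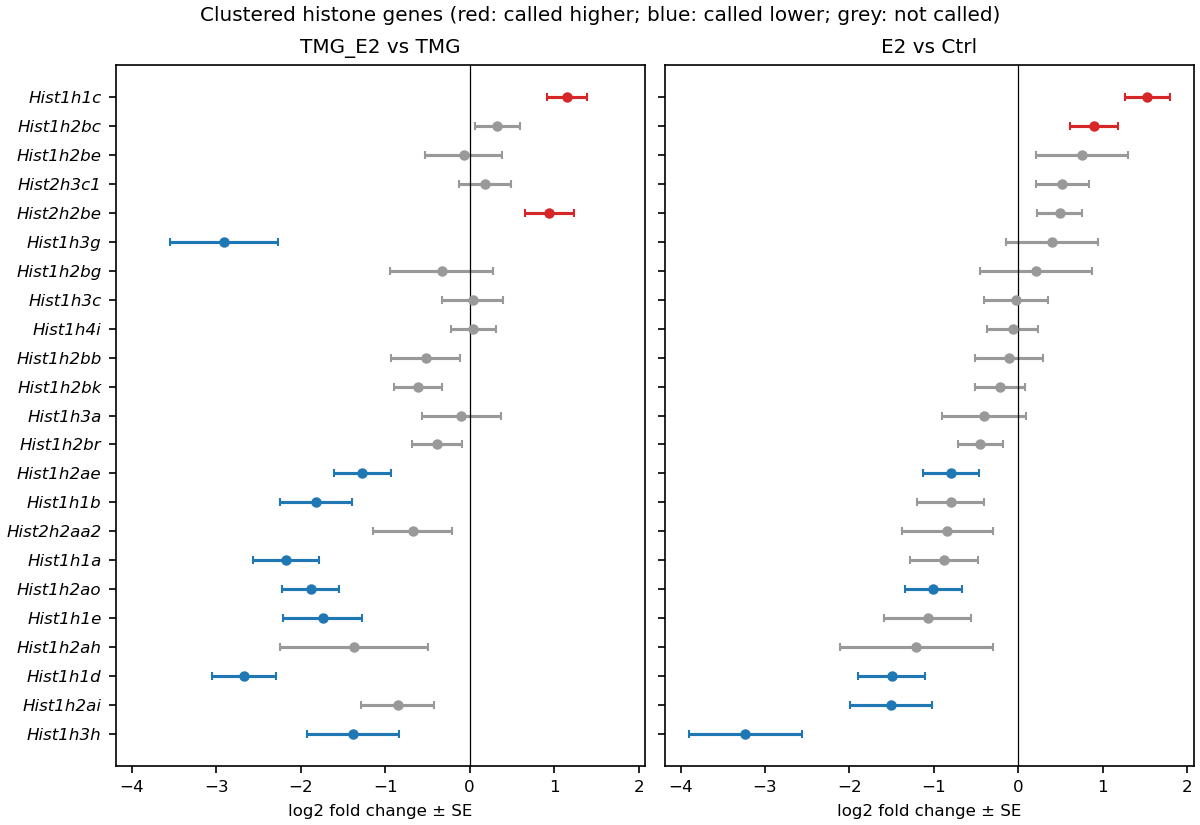
Log2 fold change ± SE of 23 of the 24 clustered genes kept by filterByExpr, in TMG_E2 against TMG cells (left) and E2 against Ctrl cells (right); red and blue mark genes called higher and lower, and grey marks genes that did not pass. Hist1h2an, at 0 in all 3 TMG_E2 libraries, is not drawn, and Hist1h1c is the gene called higher in both panels.

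TMG without E2 gave no call among the 24 clustered genes with edgeR or DESeq2, where 3.76% of all genes in that fit passed, 2.06% higher and 1.71% lower. Of the 24, 20 had a log2 fold change above 0, where 5633 of all 11143 genes did. The median was 0.42 against 0.00 over all genes. The filter itself kept some of the 24 through TMG libraries. Hist1h2bg, Hist1h3a and Hist1h3g were above its cutoff in 2 TMG libraries and 0 Ctrl libraries. Hist1h2ah went the other way, with 1 TMG library and 2 Ctrl libraries. The 20 of 24 and the median therefore describe the genes kept and support no rise with TMG. An unadjusted p under 0.05 was found for 4 of the 24 and for 1876 of all 11143 genes, a similar share. All 5 linker histone genes tested were above 0, with Hist1h1d at 0.84 ± 0.29 (SE; adjusted p = 0.126) and Hist1h1c at 0.81 ± 0.29 (adjusted p = 0.146). Hist1h1d passed with the replicate block (adjusted p = 0.0292), with no filter (adjusted p = 0.0465) and without TMG replicate 1 (adjusted p = 0.0427). TMG_E2 against E2 also gave no call with either tool, where 9.58% of all genes passed, 4.21% higher and 5.38% lower. An unadjusted p under 0.05 was found for 1 of the 24 and for 2686 of all 11143 genes. The interaction gave no call with either tool, where 0.431% of all genes passed, 0.135% higher and 0.296% lower. Its unadjusted p was under 0.05 for 2 of the 24 and for 1082 of all 11143 genes.

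The 3′ stem-loop sets the clustered transcripts apart in sequence. It was searched as GGNNNTNNNNANNNCC, with the bases of the arms able to pair (G with T allowed), in GENCODE transcripts on GRCm38. At least 1 match was found for 42 of the 64 clustered genes, for 1 of the 16 variants (H2afx, whose transcript is known to end either way) and in 1944 of 58696 other protein-coding transcripts (3.31%, of transcripts and not genes). Some genes without a match have a GENCODE transcript shorter than the deposited length. It has 312 against 409 bases for Hist1h4k and 393 against 448 for Hist1h2ai. Bases beyond such an end were not searched, so a missing match does not show that the stem-loop is absent. The elements of 5 genes described above are shown, 5′ to 3′ along the gene, with the stem-loop in capitals and 5 bases on either side.
Hist1h1c: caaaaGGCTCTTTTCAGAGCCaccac
Hist1h1d: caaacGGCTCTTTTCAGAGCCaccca
Hist1h1e: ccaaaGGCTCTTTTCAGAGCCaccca
Hist1h2ao: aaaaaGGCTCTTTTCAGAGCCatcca
Hist1h4i: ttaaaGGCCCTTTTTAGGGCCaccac
They lie at chr13:23739507-23739532 on the plus strand, chr13:23555782-23555807 on the plus strand, chr13:23621777-23621802 on the minus strand, chr13:21810893-21810918 on the plus strand and chr13:22040961-22040986 on the minus strand. The stem-loops of Hist1h1c, which rose with E2, and Hist1h1d, which fell, are the same 16 bases.

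A poly(A) signal (AATAAA or ATTAAA) was sought in the last 40 bases of each GENCODE transcript. At least 1 transcript held it for 16 clustered genes, 14 of them with a stem-loop in the same or another transcript, and for 10 variants. Hist1h2bp has its stem-loop and its signal on different transcripts. H2afy has the signal only on a transcript that GENCODE does not type as protein-coding. Hist1h1c, Hist1h2ae, Hist1h2br, Hist1h4i and Hist2h2be were among the 16, and Hist1h1d was not. The median mean level was 0.914 TPM for the 16 and 1.25 TPM for the other 48 clustered genes. The 48 include genes whose GENCODE transcript may stop short of a signal, so the split is uncertain. For 37 clustered genes GENCODE lists a transcript longer than the gene length in the deposited tables. For Hist1h1c the lengths are 1560 against 725 bases, and reads beyond the shorter end would not have been counted for it. Where a gene has several deposited transcripts, such as Hist1h2be and Hist1h2br, the deposited gene length is an average. The 37 can therefore include genes with a longer deposited transcript. The annotated ends do not show which end these libraries captured.

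The genes that make, carry and exchange histones were described from lists that draw on textbook roles. Of the histone mRNA production list, 18 of 20 genes were tested in E2 against Ctrl cells, 1 rose, 9 fell and 8 did not pass, where 82.7% of all genes kept passed (41.5% higher and 41.2% lower), with a median log2 fold change of -0.13 against -0.00 over all genes. Slbp itself did not pass (log2 fold change 0.05 ± 0.05, SE; adjusted p = 0.314; 95% interval -0.04 to 0.14), and nor did Npat, which activates transcription of the clusters (0.07 ± 0.05; adjusted p = 0.178). Cpsf3, the endonuclease that cuts histone pre-mRNA, had a log2 fold change of -0.77 ± 0.04 (SE; adjusted p = 1.83e-12). The 3′ processing genes Cstf2 and Cpsf1 were at -0.55 ± 0.04 (adjusted p = 1.35e-10) and -0.51 ± 0.04 (adjusted p = 1.94e-09), and the 1 gene that rose was Cpsf2, at 0.40 ± 0.04 (adjusted p = 1.21e-08). The processing genes also serve ordinary pre-mRNAs. In TMG_E2 against TMG cells, where 82.7% of all genes kept passed, 9 fell and 3 rose, namely Cpsf2, Npat and Ncbp1, a cap-binding gene named after its value was seen, at 0.13 ± 0.04 (adjusted p = 0.00288). The Npat call (log2 fold change 0.12 ± 0.05 (SE), adjusted p = 0.0328) was lost with library size alone (log2 fold change 0.02, adjusted p = 0.685), with only the groups compared (adjusted p = 0.0502), without TMG_E2 replicate 1 (adjusted p = 0.164) and without TMG replicate 3 (adjusted p = 0.132).

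Of the 28 genes for histone chaperones and exchange factors, 7 rose and 15 fell in E2 against Ctrl cells (median -0.15), and 6 rose and 17 fell in TMG_E2 against TMG cells, beside 82.7% of all genes kept that passed in either comparison. Set, a histone chaperone and phosphatase inhibitor, had a log2 fold change of -1.51 ± 0.04 (SE; adjusted p = 4.20e-16). Rbbp7, which binds histones in several chromatin complexes, had a log2 fold change of -1.05 ± 0.03 (SE; adjusted p = 1.21e-14). Ubn1, a subunit of the HIRA complex that deposits H3.3, had a log2 fold change of 0.90 ± 0.04 (SE; adjusted p = 1.82e-13). Of 26 genes for DNA replication and S phase, Slbp among them again, 11 rose and 10 fell in E2 against Ctrl cells (median 0.03), and 10 rose and 11 fell in TMG_E2 against TMG cells, again beside 82.7% of all genes kept. Cdc6, which loads the replicative helicase, was at 1.62 ± 0.04 (SE; adjusted p = 1.81e-16), Ccna2, the cyclin A2 gene, at 0.97 ± 0.04 (adjusted p = 9.94e-14), and Tk1, the thymidine kinase gene, at -0.65 ± 0.04 (adjusted p = 1.72e-10).

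In TMG against Ctrl cells, where 5.15% of all genes kept passed, 1 gene of these lists did. It was the chaperone list's Ipo4, an importin that carries histones, which fell by 0.15 ± 0.04 (SE; adjusted p = 0.0474). That call was lost with no filter, filterByExpr and DESeq2, at adjusted p of 0.0634, 0.0556 and 0.0561. It was also lost in all 6 fits that left out 1 library, at 0.133, 0.125 and 0.101 without TMG replicates 1, 2 and 3 and at 0.111, 0.191 and 0.0751 without Ctrl replicates 1, 2 and 3.

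In TMG_E2 against E2 cells, where 12.8% of all genes kept passed, 1 of 18 mRNA production genes and 3 of 28 chaperone genes fell and 1 of 26 replication genes rose. The chaperone genes were Ipo4 at -0.29 ± 0.05 (SE; adjusted p = 0.00143), Npm1, the nucleophosmin gene, at -0.17 ± 0.05 (adjusted p = 0.0306) and Set at -0.14 ± 0.04 (adjusted p = 0.0250). The Set call was lost with only the groups compared (adjusted p = 0.101) and without TMG_E2 replicate 1, TMG_E2 replicate 2, E2 replicate 1 or E2 replicate 3, at 0.0690, 0.109, 0.110 and 0.0668. Cpsf3 was at -0.16 ± 0.04 (SE; adjusted p = 0.0134), a call lost with only the groups compared and without E2 replicate 1 or 3, at adjusted p of 0.0598, 0.0546 and 0.0605. Ccna2 was at 0.13 ± 0.04 (SE; adjusted p = 0.0294), a call lost with library size alone, with only the groups compared and without E2 replicate 2 or 3, at adjusted p of 0.0584, 0.118, 0.0865 and 0.153. The alternatives were not run for Npm1, nor for Cpsf2 and Ncbp1 above. None of the 3 lists had a gene that passed the interaction test with edgeR.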

How the data were processed

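Expression was measured by poly(A) RNA-seq in 12 libraries, 3 for each of 4 groups given by the labels. Per the series text, the authors checked reads with FastQC 0.11.2, aligned them to GRCm38/mm10 and quantified genes with RSEM 1.2.22, and tested with edgeR 3.14.0 under R 3.2.2. Bowtie2 is named in the submitters' processing notes. The strand setting of the counting is unknown. The deposited expected counts per gene are RSEM estimates that divide reads shared between copies. TPM was deposited by the authors and was used to compare levels between genes. FPKM was also deposited by the authors and was not used.

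Each expected count was rounded to the nearest whole number before the test with edgeR 4.0.16 (quasi-likelihood, TMM) in R 4.3.3 with limma 3.58.1. All 12 libraries entered 1 fit with a mean per group, and p-values were Benjamini-Hochberg adjusted over all genes tested. The main fit kept 8273 of 32699 genes with CPM above 10 in at least 2 libraries, the filter the series text states. It holds no clustered gene, so clustered genes were tested with edgeR's filterByExpr, which kept 11143 genes. Alternatives were RLE size factors, library size alone, no filter, DESeq2 1.42.0, only the groups compared, a replicate block and each library left out. The repeats of the clustered tests were added after seeing the data. Errors of fold changes are SE, taken as the size of the log2 fold change over the square root of the test's F. The 95% intervals are 1.96 SE either side and are somewhat narrower than the test implies. For H2afx in TMG_E2 against E2 cells the interval was 0.003 to 0.240, with an unadjusted p of 0.0610 in edgeR's quasi-likelihood test. CPM in the text is scaled by TMM. Totals of 17589380 to 23178721 expected counts per library limit low genes. The pipeline was tested on simulated data.

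Same-numbered libraries deviated together in E2 against Ctrl (r = 0.108, 0.278 and 0.112), TMG_E2 against E2 (0.285, 0.182 and 0.201) and TMG_E2 against TMG (0.525, 0.149 and 0.412), and not throughout in TMG against Ctrl (0.0876, 0.0295 and 0.188). The labels give no source for a pairing. The calls reported are from the fit without a replicate block, and in the first 3 comparisons the blocked value stands beside a result whose call it changes.

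The members and lists were chosen with earlier results of these data known. Named genes were the variants, the 10 clustered genes of highest mean TPM, and of each list the 3 called genes of smallest p in E2 against Ctrl and 2 in TMG_E2 against E2, with Slbp and Npat. Cpsf2, Ncbp1 and Npm1, and Ipo4 in TMG against Ctrl, were named after their values were seen. Promoter sequences are from RefSeq and transcripts from GENCODE M21. The erythroid marker Hbb-bt was not analysed here.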

Additional observations from a re-analysis of the deposited data

How the results depend on the processing

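Which variants and clustered genes were called was mostly unchanged by the processing. Of the variants' single-gene results under alternatives, 476 of 490 kept their side of the threshold, 6 lost the call and 8 gained one, and of the clustered genes' 1462 of 1496 kept theirs, 11 lost it and 23 gained it. Of the list genes' 815 of 840 kept theirs and 25 lost it. No called result changed direction under any alternative run. The cause of the changes below was not tested.

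The replicate block moved calls over all genes to 675 in TMG against Ctrl, against 426 without it, and to 171 in the interaction, against 77. It moved calls to 2 variants in TMG_E2 against E2, against 1, and to 1 clustered gene in TMG against Ctrl (Hist1h1d), against 0. Fitting only the groups compared gave 768 calls in TMG against Ctrl and 539 in TMG_E2 against E2, against 1055. RLE size factors, library size alone and DESeq2 each gave 2 variants in TMG_E2 against E2. With no filter the interaction had 178 calls, and with filterByExpr 48. With no filter the clustered calls were 11 in E2 against Ctrl (against 7), 2 in TMG against Ctrl (against 0), 1 in TMG_E2 against E2 (against 0) and 20 in TMG_E2 against TMG (against 10), with more genes tested.

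With 1 library left out, calls ran from 196 to 257 in TMG against Ctrl, from 656 to 1160 in TMG_E2 against E2 and from 18 to 161 in the interaction. Variant calls ran from 1 to 3 in TMG against Ctrl and from 1 to 2 in TMG_E2 against E2. Clustered calls ran from 8 to 12 in E2 against Ctrl, from 0 to 1 in TMG against Ctrl and in TMG_E2 against E2, and from 10 to 14 in TMG_E2 against TMG, again with more genes tested. Clustered genes had a median of 1.21 TPM, and the filterByExpr fit tested 24 of the 64.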
